A study of Ovis aries with 12 samples.

Results

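The RTL1-side miRNA are those of 8 hairpins, miR-493, miR-665, miR-431, miR-433, miR-127, miR-432, miR-136 and miR-370, of the imprinted DLK1-DIO3 region of sheep chromosome 18. They were taken by name. Every probe of the normalised table whose name reduced to one of these 8, once the species prefix, the suffix of sequence variants and the arm were removed, was a member. This gave 8 of the 1907 names on the array and 18 of its 3091 probes other than controls. The probes targeted 16 mature arms, both arms of each hairpin, and 14 of the 18 carried an ovine name.

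Left ventricles of 12 Merino sheep had been hybridised as total RNA, all from control fetuses or control lambs, with 3 animals in each of 4 age groups that span the period over which the cells of heart muscle stop dividing. F91 were fetuses of 91 days of gestation (90 days in the stage field of the labels), F140 were fetuses of 141 days, P5 were lambs of 5 days and P173 were lambs of 173 days. All animals were female except F91 replicate 3. Twins made up the whole P5 group, and F140 held 1 twin, its replicate 2, so that twin birth and age cannot be told apart at P5. The names of the arrays of P5 replicates 1 and 2 share a number, and the labels do not state whether these lambs were co-twins.

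miRNA are short RNA cut from hairpins in longer transcripts, and they guide the silencing complex to messenger RNA, mainly through the bases of the seed near their 5′ end. In the DLK1-DIO3 region the protein-coding genes DLK1, RTL1 and DIO3 are expressed from the paternal chromosome, while the non-coding transcripts, which include the precursors of the miRNA, are expressed from the maternal one. Several of the RTL1-side hairpins lie on the strand opposite to RTL1, a gene derived from a retrotransposon, and their miRNA are fully complementary to its transcript, which they direct to cleavage in the mouse.

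The RefSeq annotation of the assembly ARS-UI_Ramb v3.0 held all 8 hairpins on chromosome 18. Read from DLK1 towards DIO3, MIR493 and MIR665 came first, then MIR431, MIR433, MIR127, MIR432 and MIR136, all 5 inside the bounds of the RTL1 gene, and then MIR370. The larger group of miRNA around MIR379 and MIR410, called here the MEG8-to-MIRG side and taken as a list of names, followed towards DIO3. The list also held miR-656 and miR-3955, the latter placed between MIR370 and MIR379. The assembly is not the one the study used, so only the order of names is given.

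The sequences that the results turn on were those of the 5 arms whose mean reached 32 units at any age. They are printed as the array's annotation gives them, with the seed, bases 2 to 8, in capitals.
miR-493-5p: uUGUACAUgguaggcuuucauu
miR-433-3p: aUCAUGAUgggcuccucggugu
miR-127: aUCGGAUCcgucugagcuuggcu
miR-432: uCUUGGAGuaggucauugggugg
miR-136-3p: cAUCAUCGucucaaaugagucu
The seeds of these 5 arms differed from one another, and no probe of another miRNA on the array shared any of them. Over all 18 member probes, the only seeds shared with another name were that of miR-127-5p, shared with the predicted arm mir-3956-p5, and that of miR-370-5p, shared with miR-1193. The closest other probe on the array matched at most 14 of the 22 bases of miR-493-5p, 14 of the 22 of miR-433-3p and of miR-136-3p, 16 of the 23 of miR-127 and 14 of the 23 of miR-432, aligned without gaps and shifted by at most 6 bases. The printed arms ranged from 36.4% G and C for miR-493-5p to 56.5% for miR-127, and the arrays differed in how their values moved with base composition, as is shown with the fetal contrast.

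The deposited values are in units of normalised signal on a linear scale, and 32 units were taken as the level of background. Of the 18 member probes, 11 were under 32 units on all 12 arrays, with values from 0 to 29 units. These 11 were every probe of miR-665, miR-431 and miR-370, the 5p arm of miR-433, the 5p arm of miR-127, the 3p arm of miR-432 and the ovine probe of miR-136. Of the other 7, 5 reached 32 units on at least 3 arrays.

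**Figure D1:**
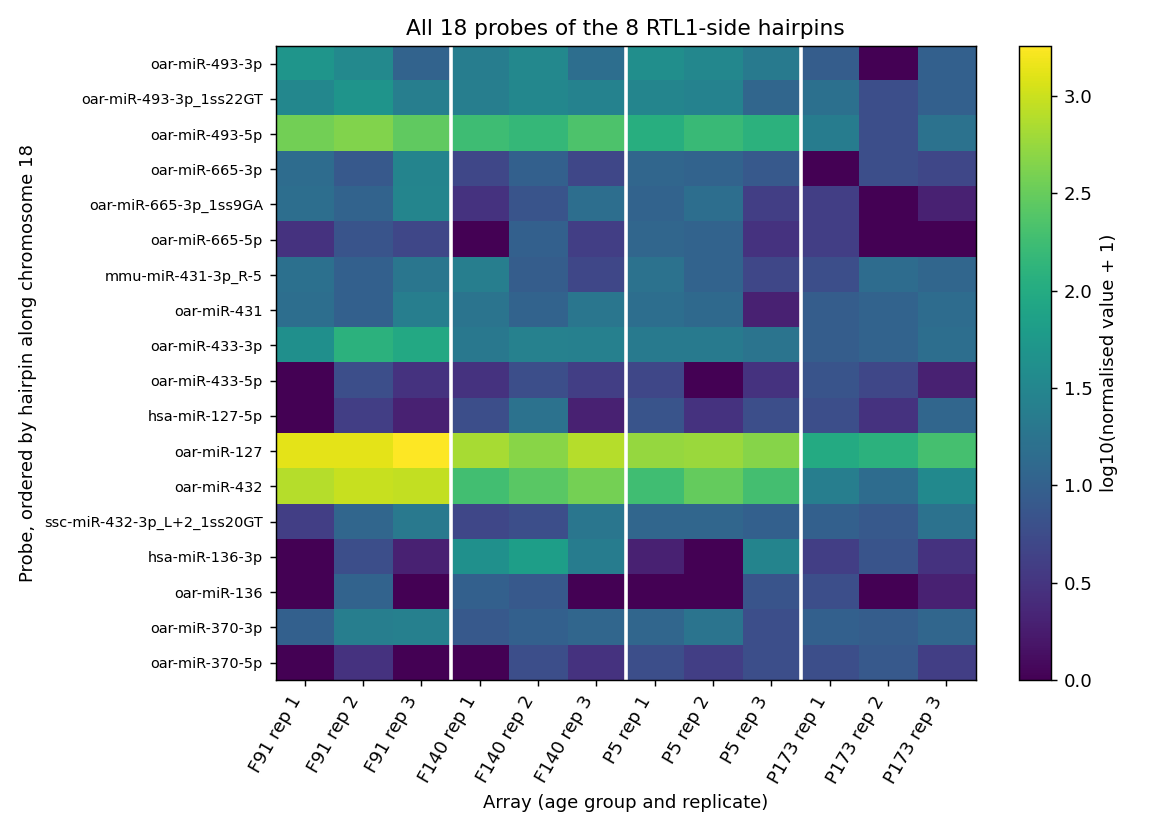
Values of the 18 member probes (rows, ordered by hairpin along chromosome 18) on the 12 arrays (columns, 3 per age), as log10 of the normalised value plus 1. The rows of miR-127, miR-432 and miR-493-5p stand out at F91 and darken towards P173, miR-433-3p is above 32 units at F91 alone, and 11 rows stay under 32 units on every array.

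miR-127, miR-432, miR-433-3p and miR-493-5p were each highest at F91 and lowest at P173. They fell from F91 to P173 by limma's moderated test (adjusted p of at most 0.05 over all 3091 probes), and they were 4 of 18 member probes, or 22.2%, where 3.53% of all probes were called lower at P173. None was called higher, beside 3.24% of all probes. The F-test over the 4 ages called the same 4 names, where 8.70% of all probes were called. Total RNA was measured, so fewer cells that hold a miRNA and less of it per cell cannot be told apart.

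miR-127, cut from the hairpin in the middle of the RTL1 group, read 1340, 1312 and 1799 units at F91 and 681, 471 and 780 units at F140. It read 543, 579 and 459 units at P5 and 96, 121 and 199 units at P173. Every F91 array was above every other array and every P173 array below every other, while F140 and P5 overlapped. The means were 1480 ± 273 (SD, n = 3), 644 ± 158, 527 ± 61.6 and 139 ± 53.7 units in order of age. From F91 to P173 the log2 change, on the scale of log2(value + 0.1) on which all changes are given, was -3.47 ± 0.33 (SE), an 11.1-fold fall (adjusted p = 2.1e-05). It was called under all but 1 of 27 alternative settings, where the log2 change ranged from -3.77 to -2.34.

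miR-432, from the next hairpin, read 783.1, 951.5 and 901.3 units at F91 and 183.9, 262.8 and 375.8 units at F140, in the deposited table with decimals. It read 181.1, 308.6 and 188.8 units at P5 and 24.2, 12.7 and 33.9 units at P173. F91 stood apart above the other ages and P173 below them, with F140 and P5 again overlapping. The P173 arrays were at the level of background, since only replicate 3 passed 32 units. From F91 to P173 the mean went from 878 ± 86.3 to 23.7 ± 10.5 units (n = 3 each), and the fitted log2 change was -5.31 ± 0.42 (adjusted p = 4.4e-06). With every value under 32 units set to 32, miR-432 was at least 26.8-fold higher at F91. A fitted change this close to background depended on the treatment of low values, and over the 27 alternatives it ranged from -5.62 to -2.91.

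miR-493-5p, from the hairpin nearest to DLK1, read 366, 439 and 287 units at F91, 172, 146 and 218 at F140, 109, 158 and 122 at P5 and 22, 5 and 16 at P173. F91 did not overlap F140, F140 and P5 overlapped, and all 3 P173 arrays were below background. Against the background of 32 units, miR-493-5p was at least 11.2-fold higher at F91 than at P173 and at least 4.01-fold higher at P5 than at P173. The adjusted p-values of these contrasts were 3.8e-05 and 0.0036.

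miR-433-3p, whose hairpin lies inside the bounds of RTL1, read 41, 121 and 92 units at F91, 19, 26 and 25 at F140, 21, 21 and 17 at P5 and 8, 10 and 14 at P173. The F91 arrays were the only ones above background, and they spread over a wide range. It was at least 2.41-fold higher at F91 than at P173 (adjusted p = 0.0046), and the F-test over the ages gave an adjusted p of 0.021. Its call between F91 and P173 ended under 4 of 27 alternatives, one of which set all values under 32 units to 32 (adjusted p = 0.077), and the other 3 fitted these ages alone.

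**Figure D2:**
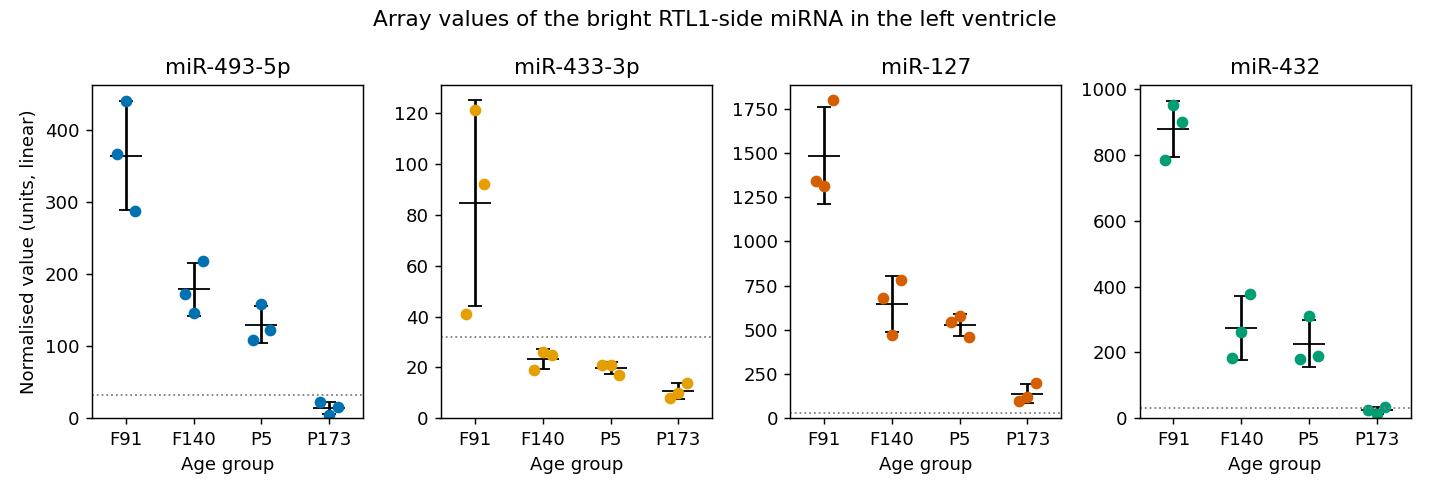
Normalised value in units (linear axes from 0) by age group for miR-493-5p, miR-433-3p, miR-127 and miR-432, with a point per animal, a bar at the mean of 3 animals and whiskers of 1 SD; the dotted line is 32 units. In each panel the F91 points lie above the F140 points and the P5 points above the P173 points, while those of F140 and P5 overlap.

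The calls lay in the fetal step and in the step from newborn to older lamb. From F91 to F140, miR-127 and miR-432 were called lower, 2 of 18 members or 11.1%, beside 1.68% of all probes lower. The log2 changes were -1.22 ± 0.33 for miR-127, a 2.33-fold fall with an adjusted p of 0.047, and -1.73 ± 0.42 for miR-432, a 3.33-fold fall with an adjusted p of 0.027. The values of these and of miR-493-5p (log2 change of -1.02 ± 0.50, adjusted p = 0.32) and miR-433-3p (at least 2.41-fold, adjusted p = 0.095) did not overlap between F91 and F140. The share of all probes without overlap between these ages is not given here, so the separation of member probes is description only.

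These fetal calls were close to the threshold. That of miR-127 ended under 20 of 27 alternatives and that of miR-432 under 10, although neither changed sign, with log2 changes from -1.37 to -0.71 for miR-127 and from -1.99 to -1.16 for miR-432. The call of miR-127 was lost without F91 replicate 2 or 3, any one F140 or P5 replicate, or P173 replicate 2 (adjusted p from 0.052 to 0.19), and that of miR-432 without F91 replicate 2 or 3 or F140 replicate 1 or 2 (adjusted p from 0.068 to 0.13). Without F91 replicate 1, miR-433-3p passed the test (adjusted p = 0.027). Same-numbered arrays of F91 and F140 shifted in the same way, and with these ages fitted alone and the replicate number as a block neither arm was called (adjusted p = 0.12 for each). With the block over all 12 arrays both calls held, at adjusted p-values of 0.05 for miR-127 and 0.035 for miR-432. With the block and the trend of base composition taken out, the adjusted p-values were 0.11 and 0.044 with these ages alone and 0.19 and 0.054 over all arrays.

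Base composition moved with the fetal contrast. Among 775 probes that averaged 100 units or more, log2 values fell with G and C content on the 3 F140 arrays, by 0.465, 0.332 and 0.175 for each 10% in replicates 1 to 3, while the F91 arrays had slopes of -0.168, 0.166 and 0.548. After removal of the trend array by array, the log2 change of miR-127 was -0.87 (adjusted p = 0.16), that of miR-432 was -1.61 (adjusted p = 0.041) and that of miR-493-5p was -1.70 (adjusted p = 0.054).

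Between F140 and P5, across birth, no member was called by limma, beside 1.81% of all probes, and 1 member, miR-136-3p, had an unadjusted p under 0.05. The same 0 calls and 1 unadjusted result came from scanner signals normalised by quantiles. The log2 change was -0.26 for miR-127 with a 95% interval of -0.98 to 0.45. That of miR-432 was -0.26 with an interval of -1.16 to 0.63, and that of miR-493-5p was -0.46 with an interval of -1.53 to 0.61. Each interval holds 0, and that of miR-493-5p also holds the size of its change in the fetal step. miR-433-3p was below background at both ages.

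From P5 to P173, miR-127, miR-432 and miR-493-5p were called lower, 3 of 18 members or 16.7%, beside 0.679% of all probes lower. miR-127 fell 3.96-fold (log2 change of -1.99 ± 0.33, adjusted p = 0.0093) and miR-432 was at least 6.72-fold higher at P5 against the floor of 32 units (fitted log2 change of -3.31 ± 0.42, adjusted p = 0.0015). Neither overlapped between these ages, nor did miR-493-5p. The call of miR-127 ended under 5 of 27 alternatives, among them without P5 replicate 1 (adjusted p = 0.054) or replicate 2 (adjusted p = 0.065), the lambs whose array names share a number, with log2 changes of -1.96 and -1.92.

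The same 3 arms were called lower at P173 than at F140, which again is 16.7% of members beside 2.43% of all probes lower. This contrast shares its P173 arrays with the preceding one. miR-127 fell 4.76-fold (adjusted p = 0.0024), and against 32 units miR-432 was at least 8.05-fold higher at F140 (adjusted p = 0.00073) and miR-493-5p at least 5.51-fold (adjusted p = 0.0009).

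**Figure D3:**
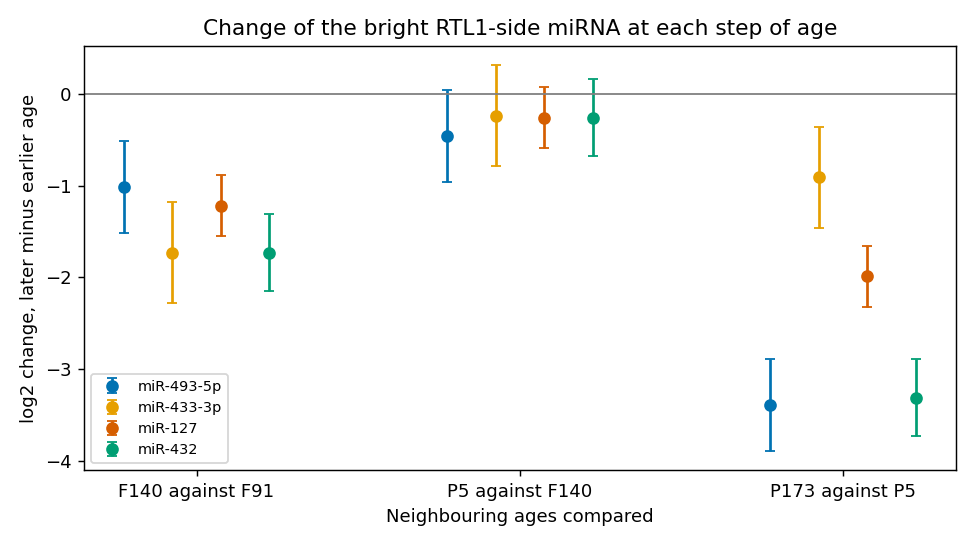
Fitted log2 change (later minus earlier age) with its standard error for miR-493-5p, miR-433-3p, miR-127 and miR-432 at each step between neighbouring ages. The changes lie between -1.73 and -1.02 from F91 to F140, between -0.46 and -0.24 from F140 to P5, and between -3.39 and -0.91 from P5 to P173; miR-433-3p was below background at F140, P5 and P173, and at P173 so were all arrays of miR-493-5p and 2 of 3 of miR-432, so the sizes of those changes are not measured.

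miR-136-3p, read by a probe with a human name, had another course. It read 0, 5 and 1 units at F91, 42, 66 and 22 at F140, 1, 0 and 28 at P5 and 3, 6 and 2 at P173, so that the arrays at or above 32 units were F140 replicates 1 and 2. The arrays of F91 and F140 did not overlap, and those of F140 and P5 did. At F140 it was at least 1.23-fold higher than at F91, and the adjusted p was 0.11, while 3 of 26 alternatives brought it past the test (adjusted p down to 0.0094). The other arm, read by the ovine probe of miR-136, gave 0 to 10 units on all arrays. miR-136-3p has 40.9% G and C, and with the trend of base composition taken out the adjusted p was 0.14.

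The remaining 13 member probes gave no call in any of the 5 contrasts. Their lowest adjusted p between F91 and P173 was 0.057, for the variant probe of miR-665-3p, which was under 32 units on all arrays. miR-493-3p, the partner arm of miR-493-5p, ranged from 0 to 49 units and read 49, 33 and 10 at F91 and 8, 0 and 9 at P173. A variant probe of it, which carries the substitution G22U (ovine base, position from the 5′ end, variant base), ranged from 5 to 47 units. These probes gave log2 changes from F91 to P173 of -3.71 (adjusted p = 0.15) and -1.88 (adjusted p = 0.10), so the fall of miR-493-5p had no called counterpart in its partner arm, which was near background throughout.

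miR-431, miR-665 and miR-370 gave 7 probes, none above 29 units. miR-431 ranged from 1 to 24 units over its ovine probe and miR-370-3p from 5 to 25 units. Their changes with age could not be measured at this signal, and nothing about their presence follows from values below background.

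Each member probe was printed 3 times on the array. The coefficient of variation of the raw scanner densities had a median over the 12 arrays of 8.20% for miR-127, 11.8% for miR-432, 9.42% for miR-493-5p and 11.5% for miR-433-3p. Before any normalisation, the mean density of the 3 spots of miR-127 was between 605 and 1260 at F91, between 674 and 1140 at F140, between 669 and 816 at P5 and between 180 and 378 at P173. The low densities at P173 were thus present in the scanner files, while F91 and F140 overlapped there and separated only after the arrays had been put on a common scale. miR-432 behaved likewise, with densities of 373 to 777 in F91, 365 to 449 in F140 and 314 to 423 in P5, and of 106 to 132 in P173. The empty spots of the arrays had median densities from 48.9 to 86.8.

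The neighbouring MEG8-to-MIRG miRNA were represented by 119 probes under 49 names, of which 17 probes averaged 100 units or more. From F91 to P173, 23 of the 119 were called lower and none higher, with a median log2 change of -1.42, where 109 of all 3091 probes were lower, 100 higher and the median was 0.01. The 18 RTL1-side probes had 4 lower, none higher and a median of -1.40, most of them being below background. From P5 to P173, 14 of the 119 were lower, with a median of -1.81, beside 3 of 18 and a median of -0.49 on the RTL1 side. Of all 3091 probes 21 were lower, with a median of -0.16. Of the 17 bright MEG8-to-MIRG probes 7 were lower, also with a median of -1.81. The RTL1-side median again rests mostly on probes below background.

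The sides differed in their counts of calls between F91 and F140, at the adjusted p threshold. There 1 of the 119 MEG8-to-MIRG probes was lower and 4 were higher, beside 1.68% and 3.85% of all probes, and among the 17 bright ones none was lower and 1 was higher. The 4 higher, named here after their values were seen, were miR-369-3p, miR-376b-3p, miR-376c-3p and a variant probe of miR-376c-3p. Among the 13 exact ovine probes that averaged 100 units or more, the log2 change ranged from -4.75 ± 2.61 for miR-381-5p (adjusted p = 0.41) to 2.68 ± 0.55 for miR-376c-3p (adjusted p = 0.014), and miR-376c-3p was the only one of them called. Others of these 13 fell by amounts near those of miR-127 and miR-493-5p without being called. They were miR-380-3p (log2 change of -1.38, adjusted p = 0.055), miR-409-3p (-1.21, 0.24), miR-329b-3p (-1.12, 0.066), miR-329a-3p (-1.06, 0.086) and miR-411a-3p (-1.0, 0.13). Positive changes were those of miR-376a-3p, miR-376c-3p, miR-376d, miR-376e-3p and miR-379-5p. The 2 RTL1-side calls of this contrast were close to the threshold, as given above. The changes of the MEG8-to-MIRG probes are given without removal of the trend of base composition. Whether the sides differ was not tested.

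**Figure D4:**
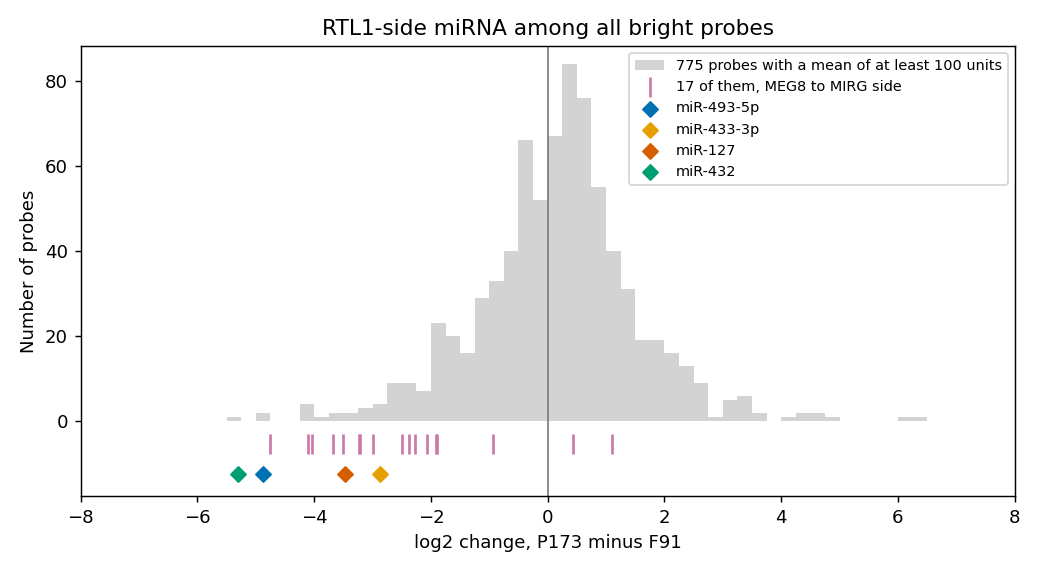
Fitted log2 change from F91 to P173 for the 775 probes averaging 100 units or more (grey bars, number of probes per bin), with ticks for the 17 of them from the MEG8-to-MIRG side and diamonds for miR-432 (-5.31), miR-493-5p (-4.88), miR-127 (-3.47) and miR-433-3p (-2.88). The 4 diamonds and most ticks lie left of 0; miR-433-3p is not itself among the 775. At P173 miR-493-5p and miR-433-3p were under 32 units on all arrays and miR-432 on 2 of 3, so the positions of these diamonds are fitted values and not measured sizes.

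The miRNA with the course most like that of miR-493-5p, miR-127 and miR-432 were sought among 253 other names averaging 100 units or more, by Pearson's r over the 12 arrays with the mean of the centred log2 values of these 3 arms. The highest were miR-380 (r = 0.995), miR-329a (r = 0.987), miR-411a (r = 0.983) and miR-329b (r = 0.978), all from the MEG8-to-MIRG side, then miR-15b (r = 0.955), a member of the miR-15 family encoded elsewhere. The 12 arrays fall into 4 ages, so these values describe the shared course with age. miR-380-3p had means of 552 ± 47.9, 211 ± 5.29, 166 ± 23.7 and 22.3 ± 11.7 units at F91, F140, P5 and P173 (SD, n = 3 each). miR-15b had means of 4460 ± 1350, 1100 ± 117, 1300 ± 287 and 272 ± 69.1 units.

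Marker miRNA of some other cell types moved with age too. Their values are given without removal of the trend of base composition, which moved with the fetal contrast. The summed level of 3 fibroblast markers, miR-199a, miR-214 and miR-21, was 7460 to 10674 units at F91 and 4184 to 6867 units at F140, then 2399 to 4123 units in the P5 lambs and 969 to 1376 units in the P173 lambs, and no one of them was under 32 units on any array. At F91 the larger part of the sum was miR-214, which in the fetuses read 5539 to 10228 units (F91) and 1491 to 2893 units (F140), and in the lambs 1727 to 2359 units (P5) and 546 to 603 units (P173). The other fibroblast markers did not follow it in the fetal step, where miR-21 read 47 to 258 units at F91 and 765 to 1043 at F140 and miR-199a 399 to 2492 and 1840 to 3083. Between F140 and P5 the sum did not overlap by a narrow margin (lowest 4184 units at F140, highest 4123 at P5), while miR-214 overlapped. Over the 12 arrays miR-214 had an r of 0.938 with the mean course of miR-493-5p, miR-127 and miR-432. The part of fibroblasts in the course of these arms was not tested. The 5 cardiomyocyte markers, miR-1, miR-133a, miR-133b, miR-208b and miR-499, summed in the fetuses to 22996 to 24976 units (F91) and 41921 to 53246 units (F140), and in the lambs to 31626 to 43289 units (P5) and 41922 to 46926 units (P173). Of these, miR-208b was at 0 to 5 units at F91 and at P5. The others did not move together between F140 and P5. miR-1 read 13055 to 20106 units at F140 and 2744 to 10689 at P5, and miR-499 read 7320 to 9350 and 768 to 2995. miR-133a read 8800 to 12097 units at F140 and 13910 to 16290 at P5, and miR-133b read 8343 to 11764 and 13310 to 14203. The 3 red cell markers summed to 769 to 2123, 3721 to 4577, 3065 to 5132 and 4818 to 6850 units in the same order of age, with miR-144 at 0 to 68 units on all arrays. The other red cell markers went opposite ways between F140 and P173. miR-486 read 1185 to 1469 units at F140 and 2917 to 4924 at P173, while miR-451 read 2235 to 3324 and 140 to 1956. The endothelial miR-126 read 923 to 4211, 6044 to 8703, 2197 to 4476 and 3535 to 3963 units in that order. The part of these cell types was not tested. The brain marker miR-9 was at 0 to 16 units on all arrays and the liver marker miR-122 at 4 to 66.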

How the data were processed

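Total RNA of 12 left ventricles was hybridised by a service provider to a custom single-colour (Cy3) array of 3098 probes besides controls, with 3 to 6 spots per probe. The authors deposited a table of normalised signals in whole numbers, treated here as a score, which they had background corrected, normalised between arrays (lowess by the table's name) and combined over spots. They also deposited the same intensity values with decimals, within 0.5 units for the 3141 shared probes, controls included, and the raw scanner intensity of each spot. All value columns were matched to a sample. The number of arrays limits the precision.

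Here the whole-number values of 3091 probes, controls left out and no filter applied, were taken as log2(value + 0.1) and fitted with limma 3.58.1 in R 4.3.3 over the 4 ages and 12 arrays (eBayes with a variance trend, no block), with an F-test and 5 contrasts. P-values were adjusted by Benjamini-Hochberg over all probes and called at 0.05 or less. Ages with all 3 arrays under 32 units were taken as at background, and folds against them divide the geometric mean of the brighter age by 32 units and are lower bounds. For miR-432 at P173, with 2 of 3 arrays under 32 units, each value under 32 was set to 32 instead. Scripts used Python 3.11.15, numpy 2.4.6, pandas 2.3.3 and matplotlib 3.10.9, and the fit was tested on simulated data.

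Each arm is represented by 1 probe, chosen in the order exact ovine, exact bovine, other exact and variant, and its values are given on every array where any age had a mean of at least 32 units. Predicted arms of the 8 hairpins, and RTL1-side miRNA known from other species such as miR-337 and miR-770, had 0 probes under these names. The replicate numbers of the titles were checked for pairing on probes averaging 100 units or more. The deviations of same-numbered F91 and F140 arrays from their age means correlated at 0.513, 0.495 and 0.511, so these ages were also compared with the number as a block, although the sources used here do not say what a number marks. No other pair of ages had all 3 correlations above 0.1. The members and lists were chosen with earlier results of these data known. Alternatives were other pseudocounts, a floor or filter at 32 units, the table with decimals, scanner signals with normexp (offset 50) scaled by quantiles or the 75th percentile, no variance trend, an unmoderated F-test, a replicate block, removal of the GC trend, each 2 ages alone, and fits without each array.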

Additional observations from a re-analysis of the deposited data

How the results depend on the processing

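Over the fall from F91 to P173, miR-127, miR-432, miR-493-5p and miR-433-3p kept their sign under all 27 alternatives. The count of members called was within 1.5 times the main count for every contrast except as follows. From F91 to F140, 2 members were called, against 4 with a pseudocount of 32, 5 with quantile-normalised scanner signals, 1 with the table with decimals or with the GC trend taken out, and 0 with the 75th percentile, without a variance trend, with these ages fitted alone, or when F91 replicates 1 and 3 were left out together with P173 replicate 2. Leaving out 1 array at a time gave 0 to 3 calls there, 3 to 4 by the F-test, 0 to 0 from F140 to P5, 2 to 3 from P5 to P173, 4 to 5 from F91 to P173 and 3 to 3 from F140 to P173. With the 75th percentile the median log2 change of all probes was -0.51 from F91 to F140, against 0.07 in the main setting, and -0.44 against 0.01 from F91 to P173. For probes averaging 100 units or more it was the other way, 0.33 against 0.12 and 0.51 against 0.24.

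Same-numbered arrays of F91 and F140 deviated together. Over all 18 pairs of the same number the correlations were -0.525 to 0.513, and 7 pairs were above 0.1. In 13 of 36 cases the best match of an array, among the 3 arrays of another age, was its own number. With 3 candidates per case, that is near the share that numbers without meaning would give. What a number marks at the other ages is not known. With the replicate block over all arrays and the GC trend taken out, 0 members were called from F91 to F140. With the replicate block and 2 ages fitted alone, 0 were called in each of the contrasts F140 against F91, P173 against P5, P173 against F91 and P173 against F140, in a fit with few residual degrees of freedom.

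Changes in sign all concerned contrasts that were not called. From F140 to P5, miR-493-5p had a log2 change of 0.02 with the GC trend taken out, with or without the replicate block, and with the 75th percentile miR-433-3p had 0.055, miR-127 had 0.019 and miR-432 had 0.004. miR-136-3p from P5 to P173 had -0.16 with a pseudocount of 32, -0.068 with quantiles, -0.113 with the 75th percentile and -0.705 to 3.363 without single arrays (lowest without P5 replicate 2), and from F91 to P173 it had -0.435 with the 75th percentile, -0.999 without the 3 arrays named above and up to 3.363 without F91 replicate 2. The cause was not tested. Signal under background on all arrays limited 11 of the 18 probes, and most others were near or under it at some ages. The 3 arrays per age limited all of them.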
